A study of Mus musculus with 15 samples.

Results

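A set of 10 mouse genes of the acute-phase and secreted antimicrobial response was described across 5 groups of MH-S cells. They are the acute-phase genes Saa3, Hp and Cp, the antimicrobial genes Lcn2, S100a8 and S100a9, the whey acidic protein (WAP) domain genes Slpi, Wfdc17 and Wfdc21, and the receptor gene Ptafr. All 10 were found by Ensembl identifier among the 78317 rows of the count table, 51487 of which could be given a symbol. The 10 genes were chosen by name with earlier results of these data in view, namely the log2 fold changes to M0, in which Saa3, Hp and Ptafr stood out in M2 cells and Wfdc21 in M1 cells. The levels in M1 and M2 cells against M0 cells are therefore described without p-values, and no call on them is read as a result. The comparisons that involve the microrods were tested. Those against M0 use the same M0 libraries as the fold changes in view, so they are not independent of the choice of genes. The comparison between the rods uses no M0 library.

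The acute-phase response is the change in secreted proteins that follows infection or injury. IL-6, IL-1 and TNF drive it through STAT3, C/EBP and NF-κB factors, mostly in the liver, but macrophages and epithelia make several of these proteins themselves. Their products work by withholding metals from microbes (lipocalin 2 binds the siderophores that carry iron, haptoglobin binds free haemoglobin, ceruloplasmin oxidises iron, S100A8 with S100A9 binds zinc and manganese), by inhibiting proteases (SLPI) or by acting as signals (serum amyloid A3). In the lung, these proteins are part of the defence of the airway lining, where alveolar macrophages live.

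MH-S is an SV40-transformed line of mouse alveolar macrophages, so each group is a set of wells of 1 line. Every group was kept for 24 h in RPMI medium with serum and held 3 libraries. M0 cells received medium alone, M1 cells LPS at 1 µg/mL with IFN-γ at 20 ng/mL, and M2 cells IL-4 at 20 ng/mL. CaP_rods and SiO2_rods cells received microrods made of calcium phosphate or silica nanoparticles, both at 0.1 mg/mL and both with alginate, protamine and carboxymethyl chitosan in them, and equal mass is not an equal number of rods. The rods are a carrier meant for inhaled delivery to alveolar macrophages, and the polarised cells serve as a reference for activation. The wells are of the same cell passage, and the study gave each rod well its own separately prepared batch of particles. P-values thus measure the spread between these wells, which in the rod groups includes the spread between particle batches. Libraries held 8459643 to 68750050 counts, the lowest in M0 and the highest in M2.

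Markers of macrophages were present throughout, with Cd68 at a mean of 976 CPM (counts scaled to the library total) over the 15 libraries. Of the markers on that list that are typical of alveolar macrophages in the lung, Siglecf had 34 counts in all libraries together, and Marco had 98 counts, with means of at most 0.147 CPM outside M1 and 2.18 CPM in M1. Itgax had means of 1.62 to 4.27 CPM, and Mrc1 stood at 27.6 CPM in M2 and 0.505 to 1.85 CPM in the other groups. All 12 epithelial or liver markers stayed at or under 3 counts in every library. The 12 neutrophil markers summed to 19.2 to 30.2 CPM in M0 cells and 81.9 to 126 CPM in M1 cells, most of it Mcemp1 and Cxcr2. Of the defining neutrophil genes, Ly6g had 1 count and Ngp 2 counts in all 15 libraries. In bulk RNA, fewer cells that express a gene and less RNA of it per cell cannot be told apart.

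Promoters are shown for 3 genes that were highest in M1 cells and for Ptafr, the gene with the largest tested difference in CaP_rods cells. Ptafr also had its highest mean in M1 (37.4 CPM, against 23.3 CPM in M0), so it is no contrast in that respect. RefSeq windows (build GRCm38.p6, not the GRCm39 build of the counts) were at hand for 8 of the 10 genes. The 150 bases that end at the annotated start are printed from 5′ to 3′ on the gene's strand, and capitals mark matches to the C/EBP consensus TTNNGNAA on either strand. The windows are chr7:46715677-46715826 on the minus strand for Saa3, chr2:164356508-164356657 on the minus strand for Slpi, chr11:83703906-83704055 on the plus strand for Wfdc17 and chr4:132563917-132564066 on the plus strand for Ptafr.
Saa3: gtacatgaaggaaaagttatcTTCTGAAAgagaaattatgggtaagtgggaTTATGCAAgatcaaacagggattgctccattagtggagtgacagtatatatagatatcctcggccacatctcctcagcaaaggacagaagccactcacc
Slpi: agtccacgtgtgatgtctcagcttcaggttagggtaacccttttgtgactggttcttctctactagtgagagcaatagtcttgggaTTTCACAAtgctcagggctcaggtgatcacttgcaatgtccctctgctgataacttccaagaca
Wfdc17: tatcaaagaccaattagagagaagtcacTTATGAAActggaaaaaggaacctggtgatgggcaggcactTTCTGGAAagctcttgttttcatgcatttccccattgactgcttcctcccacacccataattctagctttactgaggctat
Ptafr: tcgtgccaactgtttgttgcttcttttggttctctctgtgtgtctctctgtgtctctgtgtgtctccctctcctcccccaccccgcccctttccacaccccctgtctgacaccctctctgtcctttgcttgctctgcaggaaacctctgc
Of the 250 bases searched before each start, Saa3 held 4 C/EBP matches, Slpi held 3, Wfdc17 held 2 and Ptafr none. Some of these lie before the bases printed. Lcn2, also high in M1 cells and not printed, held 1, which lies 216 to 209 bases before its start. In all, 7 of the 8 genes held at least 1 match, against 36.8% of the 32851 mouse windows of that length. The NF-κB consensus occurred in 0 of the 8 genes and in 3.9% of all windows, and the STAT consensus TTCNNNGAA in 0 of the 8 and 7.02% of all. The TATA box letters TATAAA occurred in Cp and S100a8 only, against 12.4% of all windows. These are matches of letters and say nothing of binding.

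The 7 genes with enough counts took 3 kinds of pattern over the 5 groups. Saa3 and Slpi were high in M1 and low in M2 cells, Lcn2, Wfdc17 and Wfdc21 were high in M1 cells, and Hp and Ptafr were low in M2 cells. By the call used for the rods (adjusted p below 0.05 and log2 fold change beyond 0.5, edgeR), 5 of the 7 would count as higher in M1, where 9.7% of the 16654 genes fitted did, and 4 of the 7 as lower in M2, where 2.13% did. These counts follow from how the genes were chosen, and nothing is read from them. Lcn2 and Wfdc21 passed the filter on low counts only through the M1 libraries.

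**Figure D1:**
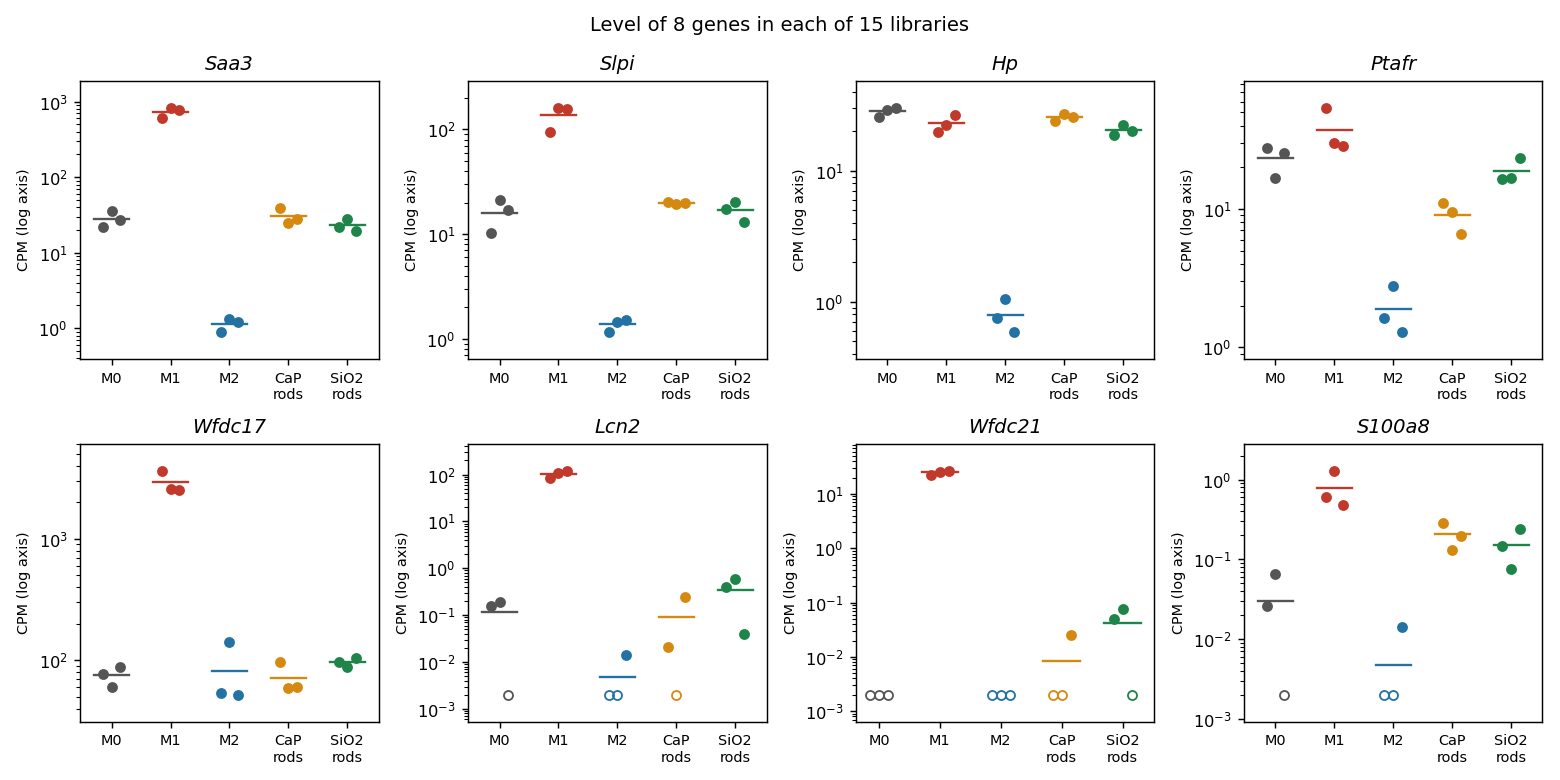
Level of 8 of the genes in each of the 15 libraries, in CPM on a log axis, by group (M0, M1, M2, CaP_rods, SiO2_rods). Each filled point is a library, an open circle at the foot is a library with 0 counts, and a line is the mean of the 3 libraries. Saa3 and Slpi lie above M0 in all M1 libraries and below it in all M2 libraries, and Ptafr is lower in the CaP_rods libraries (6.55 to 11.01 CPM) than in M0 (16.9 to 27.5 CPM).

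Saa3 (ENSMUSG00000040026) encodes the serum amyloid A that macrophages and other cells outside the liver make. Its level was 21.8, 35.8 and 26.9 CPM in the 3 M0 libraries, 599.8, 827 and 779 CPM in M1 and 0.887, 1.32 and 1.20 CPM in M2. The M1 libraries all lay far above and the M2 libraries far below the M0 libraries, with no overlap. The log2 fold change to M0 was 4.71 ± 0.26 (SE) in M1 and −4.62 ± 0.29 in M2. With rods, Saa3 stood at 39.0, 25.1 and 28.0 CPM in CaP_rods and at 21.8, 27.8 and 19.7 CPM in SiO2_rods libraries. Both rod groups overlapped M0 and each other.

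Hp (ENSMUSG00000031722), the haemoglobin-binding haptoglobin, had 25.7, 29.3 and 30.1 CPM in M0, 19.8, 22.2 and 26.8 CPM in M1 and 0.751, 1.05 and 0.587 CPM in M2 libraries. M1 and M0 overlapped, so that Hp did not share the M1 rise of Saa3, while its M2 libraries lay below all others. The log2 fold change to M0 was −0.30 ± 0.17 (SE) in M1 and −5.34 ± 0.24 in M2. Hp had 24.1, 27.2 and 25.8 CPM in CaP_rods and 18.6, 22.5 and 20.1 CPM in SiO2_rods cells. The SiO2_rods libraries lay below all M0 and all CaP_rods libraries, though narrowly, and CaP_rods overlapped M0. Cp (ENSMUSG00000003617), the copper-carrying iron oxidase ceruloplasmin, was barely detected, with 69 counts in 14 of the 15 libraries. Its means were 0.332 ± 0.220 CPM (SD, n = 3) in M0, 0.518 ± 0.263 in M1 and 0.0855 to 0.129 in the other groups. The pooled M1 level was 2.26 times that of M0 (95% exact counting interval 1.10 to 4.75). That interval leaves out the spread between wells, and 12 of the 20 counts in M1 were from M1 replicate 2. The ranges of M0 overlapped those of every other group, while the M1 libraries lay above those of M2 and of both rod groups.

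Slpi (ENSMUSG00000017002), a protease inhibitor of mucosal fluids with antibacterial activity, followed Saa3. It had 10.2, 21.1 and 16.9 CPM in M0, 93.7, 160.2 and 157 CPM in M1 and 1.16, 1.45 and 1.52 CPM in M2 libraries. The order M1, M0, M2 held without overlap, with log2 fold changes to M0 of 3.11 ± 0.28 (SE) and −3.49 ± 0.33. Slpi had 20.1, 19.5 and 19.7 CPM in CaP_rods and 17.2, 20.3 and 13.2 CPM in SiO2_rods libraries, and all of these fell within the range of the M0 libraries.

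Wfdc17 (ENSMUSG00000069792), a small secreted WAP protein of activated macrophages, had 76.8, 60.6 and 88.6 CPM in M0 and 3644, 2595 and 2528 CPM in M1 libraries. The log2 fold change was 5.28 ± 0.40 (SE), and the M1 libraries lay above all others. The M2 libraries stood at 53.4, 141 and 52.1 CPM, on both sides of the M0 libraries, and replicate 2 decided the sign of the mean difference. With all libraries the log2 fold change of M2 to M0 was 0.11 ± 0.34, and without replicate 2 it was −0.51. Wfdc17 had 97.7, 58.9 and 59.9 CPM in CaP_rods and 96.3, 88.9 and 104 CPM in SiO2_rods libraries. The lowest SiO2_rods library was just above the highest M0 library, and CaP_rods overlapped both.

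Wfdc21 (ENSMUSG00000051748), another WAP protein, was found almost only in M1 libraries, with 265, 365 and 277 counts or 22.8, 25.0 and 26.9 CPM. It had 0 counts in all M0 and M2 libraries, 1 in all CaP_rods libraries together and 2 in all SiO2_rods libraries. With a floor of 3 counts per library (0.348 CPM in the shallowest M0 library), its M1 level was at least 71.6-fold higher than in M0. Lcn2 (ENSMUSG00000026822), the siderophore-binding lipocalin 2, had 974, 1559 and 1245 counts in M1 libraries, which is 83.7, 107 and 121 CPM. The M0 libraries held 6, 3 and 0 counts of it, the M2 libraries 0, 0 and 1, CaP_rods 1, 0 and 10 and SiO2_rods 8, 8 and 1. The log2 fold change of M1 to M0 was 9.44 ± 0.57 (SE), and its size rests on the 9 counts in M0. Lcn2 and Wfdc21 were thus separated in M1 from every other group. Among the other groups, Lcn2 was higher in every SiO2_rods than in every M2 library. That gap rests on library depth, since the nearest SiO2_rods and M2 libraries (0.0396 and 0.0143 CPM) held 1 count each. The remaining groups overlapped for Lcn2. Its pooled level was 0.0747 times that of M0 in M2 (95% exact counting interval 0.00170 to 0.539), 0.728 times in CaP_rods (0.274 to 1.99) and 1.99 times in SiO2_rods (0.838 to 5.06). These intervals, too, leave out the spread between wells.

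S100a8 (ENSMUSG00000056054) and S100a9 (ENSMUSG00000056071) encode the subunits of calprotectin, an abundant protein of neutrophils. S100a9 had 0 counts in all 15 libraries, which allows a level of up to 0.00848 CPM over all of them. S100a8 had 68 counts in all, of which 31 were in M1 (7, 19 and 5), 24 in CaP_rods (14, 2 and 8), 10 in SiO2_rods (3, 1 and 6), 2 in M0 (1, 1 and 0) and 1 in M2. Every M1, CaP_rods and SiO2_rods library was above every M0 library in CPM. For SiO2_rods this rests on library depth, since replicate 2 of SiO2_rods (0.0756 CPM) and of M0 (0.0650 CPM) held 1 count each. Of the genes tested, which leave out S100a8, 20.2% lay wholly above M0 in M1, 7.32% in CaP_rods and 9.07% in SiO2_rods. The means were 0.796 ± 0.440 CPM (SD, n = 3) in M1, 0.206 ± 0.0780 in CaP_rods and 0.153 ± 0.0813 in SiO2_rods. Relative to the 2 M0 counts, the pooled level was 26.3 times as high in M1 (95% exact interval 6.69 to 226.6), 7.14 times in CaP_rods (1.77 to 62.4) and 5.26 times in SiO2_rods (1.12 to 49.4). All counting intervals in this text treat each read as an independent draw, which reads without molecular identifiers are not. They also leave out the spread between wells, so they understate the uncertainty. The means of the rod groups lie under the 0.348 CPM floor of the shallowest M0 library. When S100a8 was let into the edgeR fit without a filter, the log2 fold change to M0 was 2.65 in CaP_rods (adjusted p = 0.210) and 2.18 in SiO2_rods (adjusted p = 0.825). S100a8 therefore did not pass in either. In M1 the summed neutrophil markers were also higher (81.9 to 126 CPM), while Ly6g had 1 count in all libraries.

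Ptafr (ENSMUSG00000056529) encodes the G protein-coupled receptor for platelet-activating factor (PAF), a lipid that calls in and activates leukocytes. It had 27.5, 16.9 and 25.6 CPM in M0, 53.9, 29.9 and 28.5 CPM in M1 and 1.64, 2.76 and 1.29 CPM in M2 libraries. All M1 libraries were above the M0 libraries, the lowest of them narrowly, and all M2 libraries below them. The log2 fold change to M0 was 0.68 ± 0.31 (SE) in M1 and −3.81 ± 0.38 in M2. Ptafr had 11.01, 9.47 and 6.55 CPM in CaP_rods and 16.4, 16.8 and 23.3 CPM in SiO2_rods libraries. CaP_rods libraries thus lay between those of M2 and those of M0 and SiO2_rods without overlap, and SiO2_rods overlapped M0.

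The study asks whether the rods activate macrophages, and for these genes the rod groups were compared with M0 and with each other. In the fit of the 9 M0 and rod libraries, Saa3, Hp, Slpi, Wfdc17 and Ptafr had enough counts, and none of the 5 was called in any of the 3 comparisons by edgeR. Of all 16621 genes tested, 0.409% were called between CaP_rods and M0, 0.0602% between SiO2_rods and M0 and 0.0241% between CaP_rods and SiO2_rods. At an unadjusted p below 0.05 by edgeR stood 1 of the 5 in each, Ptafr for CaP_rods against M0 (18% of all genes), Hp for SiO2_rods against M0 (9.27%) and Ptafr for CaP_rods against SiO2_rods (1.87%). DESeq2 called Ptafr in the first comparison, where it called 4.05% of all genes, and 0 of the 5 in the others, where it called 0.806% and 0.0963%. Groups did not overlap for 1 of the 5 genes between CaP_rods and M0 (17.4% of all genes tested), 2 between SiO2_rods and M0 (17.9%) and 2 between CaP_rods and SiO2_rods (8.09%). Since both comparisons with M0 use the same M0 libraries, their values are only set side by side.

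For Saa3, the log2 fold change was 0.13 ± 0.24 (SE, adjusted p = 0.817, edgeR) in CaP_rods and −0.29 ± 0.25 (adjusted p = 0.786) in SiO2_rods against M0. For Slpi, it was 0.32 ± 0.27 (adjusted p = 0.571) and 0.08 ± 0.27 (adjusted p = 0.968). All 4 differences were close to their SE or below it, and the rod groups overlapped M0 for both genes. For Wfdc17, the values were −0.06 ± 0.23 (adjusted p = 0.916) and 0.36 ± 0.23 (adjusted p = 0.687). For Hp, they were −0.14 ± 0.15 (adjusted p = 0.675) and −0.47 ± 0.15 (adjusted p = 0.413). The lower Hp in SiO2_rods cells thus does not hold after correction over all genes, although it was lower in 3 of 3 libraries. Between the rods, CaP_rods minus SiO2_rods was 0.42 ± 0.24 for Saa3, 0.23 ± 0.27 for Slpi, −0.42 ± 0.23 for Wfdc17 and 0.33 ± 0.15 for Hp, with an adjusted p of 0.9999 for each by edgeR.

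**Figure D2:**
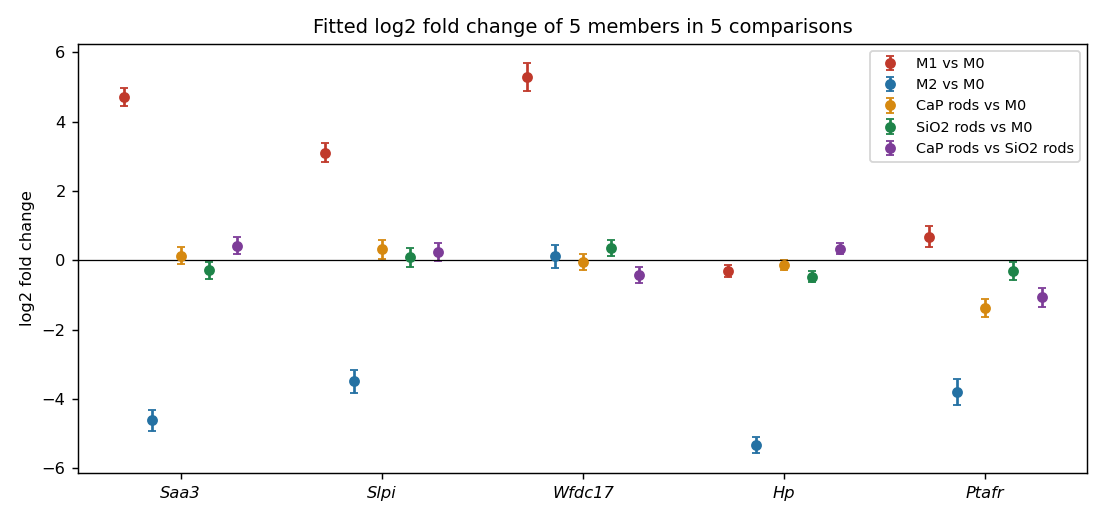
Log2 fold change of Saa3, Slpi, Wfdc17, Hp and Ptafr in the 5 comparisons, with bars of 1 SE. The M1 and M2 values reach 5.28 and −5.34, while among the rod comparisons only Ptafr in CaP_rods lies beyond 1 on this scale, at −1.38 against M0 and −1.07 against SiO2_rods.

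Among the 5 genes tested, Ptafr had the largest difference between rod-exposed and M0 cells. Its log2 fold change in CaP_rods against M0 was −1.38 ± 0.27 (SE), with an adjusted p of 0.0728 by edgeR, so that it fell short of the call. DESeq2 gave −1.38 with an adjusted p of 0.00106, and edgeR without the filter on low counts gave an adjusted p of 0.0342. The outcome also turned on single libraries, with an adjusted p of 0.0363 without M0 replicate 2 and of 0.0342 without CaP_rods replicate 1. Over the 6 ways of leaving out a library it ranged from 0.0342 to 0.308, while the log2 fold change stayed between −1.58 and −1.19. In SiO2_rods against M0, Ptafr changed by −0.31 ± 0.26 (adjusted p = 0.787). The direct comparison of CaP_rods with SiO2_rods gave −1.07 ± 0.27 (SE), which did not pass over all genes by edgeR (adjusted p = 0.9999) or DESeq2 (adjusted p = 0.300). A difference between the rods in Ptafr is therefore not shown. The summed macrophage markers were 2613 to 2986 CPM in CaP_rods and 2559 to 3516 CPM in M0 cells, most of it Cd68 and Lyz2. Single markers on that list differed in the mean, though none was called by edgeR. Mrc1 (0.505 against 1.85 CPM, adjusted p = 0.0714) and Itgam (16.8 against 33.2 CPM, adjusted p = 0.0869) were lower in CaP_rods than in M0. Itgax was higher (4.27 against 2.51 CPM, adjusted p = 0.212). The summed neutrophil markers were 12.7 to 16.4 CPM in CaP_rods and 19.2 to 30.2 CPM in M0. Most of that sum was Mcemp1 (mean 7.82 against 12.1 CPM) and Cxcr2 (5.37 against 11.1 CPM), while Ly6g had 1 count in all 15 libraries. The part of any of these markers in the Ptafr result was not tested.

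**Figure D3:**
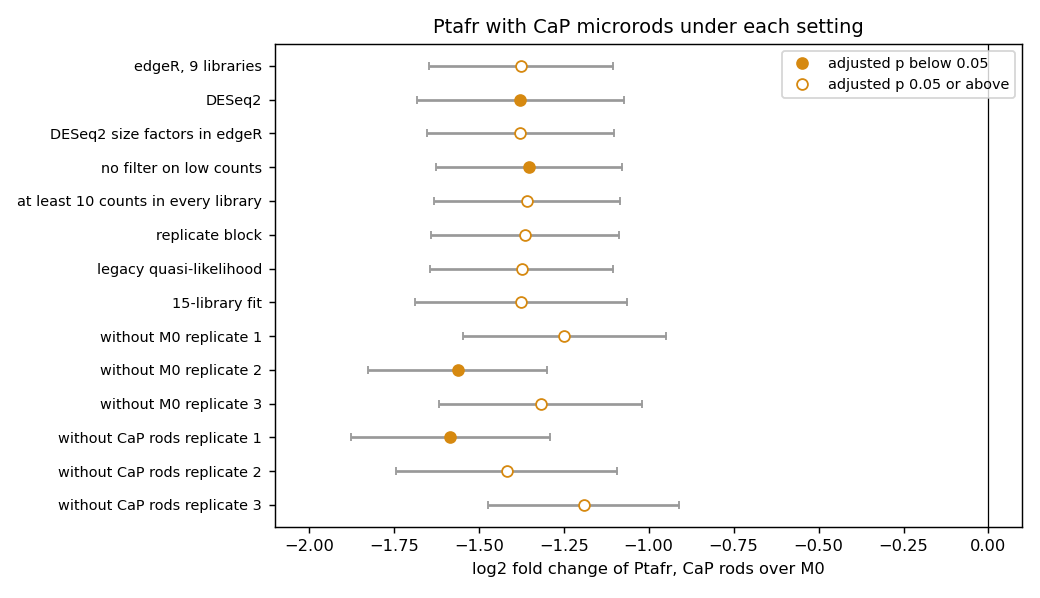
Log2 fold change of Ptafr in CaP_rods against M0 under 14 settings, with bars of 1 SE, where filled points have an adjusted p below 0.05. All values lie between −1.58 and −1.19, and 4 settings (DESeq2, no filter, without M0 replicate 2, without CaP_rods replicate 1) are filled.

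Across the 15 libraries, the genes most like each member in log2 CPM were sought among the 11304 genes at a mean of 5 CPM or more in some group. The libraries share their 5 groups, so these Pearson correlations (n = 15) reflect group means as well as single libraries and are given as a description. Saa3 and Slpi were most like Cd14, the LPS co-receptor, with r = 0.991 for both, and r between Saa3 and Slpi was 0.990. Next came Htra1, a serine protease, with r = 0.973 for Saa3 and 0.963 for Slpi, followed by Cpd (0.961) for Saa3 and Clec4e (0.959), a receptor for microbial glycolipids, for Slpi. Cd14 had 281 ± 32.2 CPM (SD, n = 3) in M0, 1403 ± 113 in M1, 43.8 ± 1.09 in M2, 301 ± 31.7 in CaP_rods and 299 ± 15.7 in SiO2_rods cells.

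Hp was most like Lyz2, the lysozyme of macrophages (r = 0.992), then Peak1 (0.952) and Il13ra1 (0.947), a chain of the IL-4 and IL-13 receptor. Lyz2 had a mean of 1847 ± 376 CPM (SD, n = 3) in M0 and 368 ± 61.3 in M2 cells, and its means in the M1 and rod groups lay between 1679 and 1699 CPM. Ptafr was most like Cybb (r = 0.963), the membrane subunit of the NADPH oxidase, then Cpd (0.931) and Nedd4l (0.923). Cybb had 544 ± 165 CPM in M0, 288 ± 55.2 in CaP_rods, 357 ± 32.3 in SiO2_rods, 611 ± 224 in M1 and 133 ± 27.4 in M2 cells. Its means in both rod groups were thus between those of M2 and M0.

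Lcn2 was most like the cytokine genes Csf3 (r = 0.997), Il6 (0.987) and Il1b (0.982). Wfdc17 was most like the chemokine gene Ccl5 (0.987), BC049352 (0.986) and AC103947.2 (0.986), and Wfdc21 like the transcription factor gene Batf (0.997), Urah (0.996) and 1700003M07Rik (0.995). Among the members, r was 0.983 between Lcn2 and Wfdc21, 0.980 between Wfdc17 and Wfdc21, 0.951 between Lcn2 and Wfdc17 and 0.865 between Hp and Ptafr. The lowest r was that of Hp with Wfdc17, 0.245. Lcn2 and Wfdc21 were near 0 outside M1, so a high r with any gene that stands out only in M1 was fixed in advance. Their r values therefore describe a single contrast, M1 against the other groups.

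**Figure D4:**
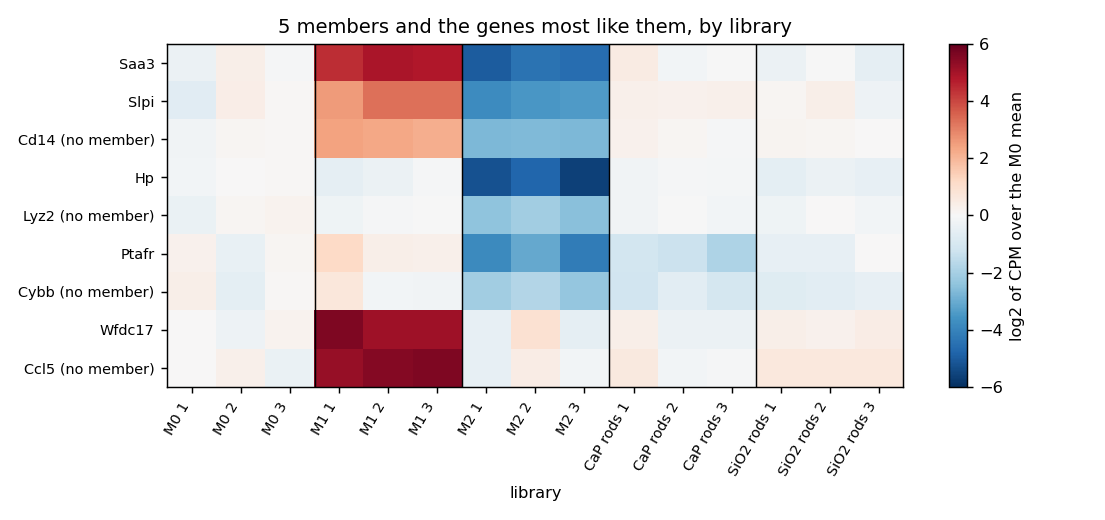
Colour map of log2 CPM relative to the M0 mean in the 15 libraries for Saa3, Slpi, Hp, Ptafr and Wfdc17 and for Cd14, Lyz2, Cybb and Ccl5, on a scale that ends at 6 in both directions. Saa3, Slpi and Cd14 are above M0 in M1 and below it in M2, Hp, Lyz2, Ptafr and Cybb are lowest in M2, and Wfdc17 and Ccl5 stand out in M1.

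The surrounding pathway was followed in 6 lists of 122 other genes. The lists were chosen with earlier results of these data known, so their counts and adjusted p-values in M1 and M2 are description only. The filter on low counts passed 60 of them with all libraries and 53 of these also without the M1 and M2 libraries. Counts for M1 and M2 are given over the 53, since the other 7 entered through the polarised cells. In M1 against M0, 15 of the 53 rose (9.7% of all genes tested) and 7 fell (4.37%), with a median log2 fold change of 0.20 against −0.01 over all genes. Of the inducers and mediators of the acute phase, 8 of 16 rose and 1 fell, with a median of 0.86. Il1b, the cytokine IL-1β, had 411 CPM in M1 and 1.07 CPM in M0 cells. Outside that count, Il1a had 0 counts in M0 and was at least 102-fold higher in M1 by the floor of 3 counts per library. Il6 had 2 counts in M0 and 1856 in M1, a ratio of pooled levels of 1574 (95% exact counting interval 435 to 13000). Of the other acute-phase proteins, 1 of 2 rose, namely Cd14 (2.32 ± 0.14, SE, adjusted p = 9.35e-08, edgeR).

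The list of other antimicrobial genes, not all of which encode secreted proteins, had 1 of 6 higher in M1 cells, 3 lower and a median of −0.73. The 1 that rose was Acod1, from 3.01 to 158 CPM, whose product is an enzyme that makes the antimicrobial metabolite itaconate. Cst3, the secreted protease inhibitor cystatin C, fell by 1.11 ± 0.21 on the log2 scale. Of the other WAP and S100 genes, 1 of 8 rose and 1 fell. Wfdc18 rose from 0.348 to 21.3 CPM, and S100a6, a calcium-binding protein, fell by 0.61 ± 0.17. Of the receptors and partners of the members, 4 of 12 rose, among them Fth1, the heavy chain of the iron store ferritin (1.89 ± 0.20), and Cd36, a scavenger receptor (0.88 ± 0.24). Outside that count, Fpr1, a receptor for bacterial formyl peptides, had 8.003 CPM in M1 and 0.156 CPM in M0 cells. Of the genes of PAF synthesis and breakdown, 2 of 9 fell, namely Lpcat1, which makes PAF (−0.90 ± 0.21), and Pafah1b3, a PAF hydrolase subunit (−0.56 ± 0.17).

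In M2 against M0, 3 of the same 53 list genes rose (2% of all genes tested) and 7 fell (2.13%), with a median of −0.01 against 0.07 over all genes. Cd14 fell by 2.68 ± 0.14 (SE, adjusted p = 8.30e-08, edgeR) on the log2 scale, and Lyz2 changed by −2.33 ± 0.18 (adjusted p = 3.11e-06). Tlr2, a receptor for bacterial lipoproteins, went from 33.8 to 9.99 CPM, Tnf from 26.7 to 11.2 CPM, and Slc40a1, the iron exporter ferroportin, from 4.66 to 0.925 CPM, all called lower. Nfkbiz, a co-factor of NF-κB at secondary response genes, fell by 1.62 ± 0.29 (adjusted p = 0.00512). Against that direction, C3, the central complement protein, rose from 10.5 to 47.9 CPM and Pafah1b3 rose by 0.71 ± 0.17. With only the M0 and M2 libraries in the fit, Cd14 and Lyz2 were the 2 list genes still called.

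In the rod comparisons, 54 list genes were tested and edgeR called 0 in each. At an unadjusted p below 0.05 stood 17 for CaP_rods against M0, 9 for SiO2_rods against M0 and 1 between the rods, where 18%, 9.27% and 1.87% of all genes did. DESeq2 called 8, 3 and 0, where it called 4.05%, 0.806% and 0.0963% of all genes. Those for CaP_rods were Acod1, C3, Cst3, Hmox1, Lpcat1, Osm, Scarb1 and Tnf, and those for SiO2_rods were Acod1, C3 and Lpcat1. The median log2 fold change of the list genes was 0.15 for CaP_rods against M0 (0.06 over all genes), 0.08 for SiO2_rods against M0 (−0.02) and 0.06 between the rods (0.03). The gene for haem oxygenase, Hmox1, which breaks down the haem that haptoglobin helps to clear, stood at 181 CPM in CaP_rods and 81.8 CPM in M0 cells (1.15 ± 0.24, SE, adjusted p = 0.0842, edgeR). It passed without the filter on low counts. Of the inducers, the cytokine genes Tnf (52.2 against 26.7 CPM, adjusted p = 0.123) and Osm (12.5 against 4.42 CPM, adjusted p = 0.124) were higher in the mean with CaP_rods than in M0. The same held for Acod1 (6.84 against 3.01 CPM, adjusted p = 0.114) and for Scarb1, a lipoprotein receptor (74.2 against 28.4 CPM, adjusted p = 0.153). Lower in the mean were C3 (5.26 against 10.5 CPM, adjusted p = 0.126), Cst3 (868 against 1285 CPM, adjusted p = 0.111) and Lpcat1 (15.1 against 26.4 CPM, adjusted p = 0.111), all by edgeR. With SiO2_rods, Acod1 stood at 6.83 CPM (adjusted p = 0.287), C3 at 4.70 CPM (adjusted p = 0.263) and Lpcat1 at 14.5 CPM (adjusted p = 0.230). These genes are named because DESeq2 called them, which was seen before they were picked.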

How the data were processed

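RNA from 15 wells was made into Smart-seq2 libraries, which carry no molecular identifiers. The deposited values are gene counts that the authors made with Salmon in an nf-core pipeline on build GRCm39, and being whole numbers they may be rounded estimates. No column of the table was left unused (0 unused). Symbols were matched by identifier from a table of another annotation release, used for names only, and 1 gene of the lists had no match. The 10 genes and the pathway and marker lists were chosen with earlier results of these data known.

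Groups came from the sample titles. Levels are CPM on TMM-scaled library sizes. Tests were edgeR 4.0.16 quasi-likelihood (filterByExpr, R 4.3.3, limma 3.58.1), with Benjamini-Hochberg adjustment over all genes, on 9 libraries for the rods and 15 for M1 and M2. Genes were called where the adjusted p was under 0.05 and the log2 fold change was beyond 0.5 in size. The SE was taken as that size divided by the square root of F. The scripts were tested on simulated counts. Alternatives were DESeq2 1.42.0, its size factors in edgeR, other filters on low counts, a replicate block, other sets of libraries, leaving out each library, and, added after seeing the data, the legacy quasi-likelihood fit.

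Named were all 10 genes and, from each list, every gene called with rods and the 3 most changed of those called in M1 and in M2 with at least 5 CPM in a group, and the 3 genes most correlated with each member. The text also names genes that DESeq2 called.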

Additional observations from a re-analysis of the deposited data

How the results depend on the processing

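For the rods against M0, the count of the 10 genes called was 0 with edgeR and 1 (Ptafr) for CaP_rods with DESeq2 and without the filter on low counts, and 0 to 1 when each library was left out. It stayed 0 for SiO2_rods against M0 and between the rods under every alternative run. List genes called for CaP_rods against M0 were 8 with DESeq2, 1 (Hmox1) without the filter and 0 to 9 without single libraries, with 9 without CaP_rods replicate 1 and 4 without M0 replicate 2. For SiO2_rods against M0 DESeq2 called 3. For M1 against M0, 3 of the genes were called in place of 5 when 10 counts were required in every library, since Lcn2 and Wfdc21 then cannot enter. For M2 against M0, 11 of all 60 list genes tested were called with all libraries and 2 with only the 6 libraries compared. The cause was not tested. Over all genes, calls moved from 68 to 673 (DESeq2), 178 (no filter), 109 (15 libraries), 28 (replicate block) and 13 to 743 (single libraries left out) for CaP_rods against M0, from 10 to 134, 17, 44, 1 and 0 to 5 for SiO2_rods against M0 in the same order, and from 687 to 1141 (no filter), 98 (6 libraries) and 316 to 1361 (single libraries) for M2 against M0. Between the rods they moved from 4 to 16 (DESeq2), 8 (no filter), 2 (10 counts), 1 (replicate block) and 1 to 3 (single libraries). For M1 against M0 they were 2342, and 1511 to 2064 without single libraries. No direction reversed among the called values.

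The replicate numbers gave no clear sign of pairing. Same-numbered libraries deviated from their group means with r of −0.70 to 0.60 over 30 pairs of libraries (median −0.005). For differently numbered libraries, r was −0.66 to 0.73 over 60 pairs (median 0.005). Whether same-numbered wells were handled together cannot be told from these values. With the replicate block, Ptafr in CaP_rods against M0 was −1.36 with an adjusted p of 0.125, and 0 of the 10 genes were called with rods.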

Other observations

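The liver-type relatives of Saa3 were close to the detection limit. Saa1 had 73 counts and a mean of 1.93 CPM in M1 cells against 3 counts in M0, a ratio of pooled levels of 41.3 (95% exact counting interval 13.6 to 204.7), and Saa2 had 0.634 CPM in M1 cells. The abundant S100 genes of these cells were others than S100a8 and S100a9. S100a10 had means of 715 to 895 CPM and S100a11 of 239 to 461 CPM over the 5 groups, with the highest S100a11 mean in CaP_rods (0.58 ± 0.23, SE, against M0, adjusted p = 0.232, edgeR).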
